A study of Mus musculus with 7 samples.

Results

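The expression of 10 target genes of the transcription factor p53 was followed in embryos that lack Smchd1. They were the rows of the deposited expression table named Cdkn1a, Ccng1, Eda2r, Trp53inp1, Mdm2, Bax, Phlda3, Zmat3, Sesn2 and Bbc3, chosen by gene name, 10 of 25965 rows in all. RNA-seq was made from female mouse embryos of strain FVB/N at E9.5, from the tail-end tissue behind the last somite. The 4 Smchd1 null libraries carried MommeD1, a null allele of Smchd1, on both chromosomes, and the 3 wild-type libraries were Smchd1 +/+. The submitters' design text speaks of 3 nulls, whereas the labels and the table hold 4.

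p53 is a transcription factor that is kept at a low level in unstressed cells, because its target Mdm2 is a ubiquitin ligase that marks it for degradation. When DNA damage or another stress stabilises p53, its targets arrest the cell cycle, restrain growth signalling, or start apoptosis through proteins that open the mitochondrial outer membrane. Mouse embryos are sensitive to excess p53, and loss of Mdm2 is lethal before birth unless p53 is removed as well. Smchd1 is a non-canonical SMC protein required to keep genes of the inactive X chromosome silent.

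p53 binds DNA at pairs of a decamer motif, the p53 decamer, that may be separated by up to 13 bases. RefSeq windows from 250 bases before to 50 bases after a transcription start (GRCm38.p6, the C57BL/6J reference and not FVB/N) were held for 8 of the 10 genes, not for Trp53inp1 and Zmat3. An exact match to the p53 decamer, whose consensus is the same on both strands, stood in 4 of the 11 windows of these genes, in 1 window each of 4 genes, against 8.36% of all 32851 windows. The 4 windows are shown because 2 belong to genes that were higher in null tissue at an unadjusted p below 0.05 and 2 to genes that were not, with the exact decamers in capitals and each sequence written 5′ to 3′ in the direction of transcription. They are chr17:29090729-29091028 on the plus strand for Cdkn1a, and on the minus strand chr11:40755237-40755536 for Ccng1, chr7:45466849-45467148 for Bax and chr10:117710709-117711008 for Mdm2.
Cdkn1a: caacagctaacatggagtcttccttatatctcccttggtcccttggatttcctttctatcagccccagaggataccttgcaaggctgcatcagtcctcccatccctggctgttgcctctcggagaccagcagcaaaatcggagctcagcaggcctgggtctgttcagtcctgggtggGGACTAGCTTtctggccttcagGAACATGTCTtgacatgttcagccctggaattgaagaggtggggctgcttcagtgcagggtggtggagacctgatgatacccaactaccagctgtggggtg
Ccng1: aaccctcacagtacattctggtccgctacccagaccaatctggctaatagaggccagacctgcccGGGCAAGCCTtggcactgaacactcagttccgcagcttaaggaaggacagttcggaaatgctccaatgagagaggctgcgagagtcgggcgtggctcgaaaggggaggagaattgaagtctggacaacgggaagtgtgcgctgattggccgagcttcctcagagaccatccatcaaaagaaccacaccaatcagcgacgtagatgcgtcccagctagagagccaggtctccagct
Bax: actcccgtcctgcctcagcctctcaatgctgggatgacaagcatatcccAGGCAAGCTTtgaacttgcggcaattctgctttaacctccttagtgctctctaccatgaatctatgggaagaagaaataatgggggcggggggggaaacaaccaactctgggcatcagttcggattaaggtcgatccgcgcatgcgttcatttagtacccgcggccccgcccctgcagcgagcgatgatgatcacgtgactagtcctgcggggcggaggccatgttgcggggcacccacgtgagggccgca
Mdm2: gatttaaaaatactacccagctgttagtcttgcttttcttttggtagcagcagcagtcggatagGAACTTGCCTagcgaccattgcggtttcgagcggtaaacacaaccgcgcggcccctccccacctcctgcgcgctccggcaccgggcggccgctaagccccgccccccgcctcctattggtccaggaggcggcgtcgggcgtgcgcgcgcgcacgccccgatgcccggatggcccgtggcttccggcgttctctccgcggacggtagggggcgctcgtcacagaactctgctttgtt

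The Cdkn1a window lies at the more upstream of 2 RefSeq starts, which are 2790 bases apart, and the window at the other start held no exact decamer. Its 2 exact decamers began at -73 and -51 from the start and were 12 bases apart. A pair of exact decamers within 13 bases of each other stood in 0.0731% of all windows. The second of them also abutted a decamer with 1 mismatch, which gave the unbroken run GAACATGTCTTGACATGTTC. In Ccng1 the exact decamer abutted another with 1 mismatch, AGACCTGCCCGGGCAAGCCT, and pairs with at most 1 mismatch stood in 0.627% of windows. The best pair in the Bax window had 2 mismatches, found in 4.09% of windows, and the best pair in the Mdm2 window had 4, found in 40.4%. The windows of Eda2r, Phlda3, Sesn2 and Bbc3 held no exact decamer, which says only that these letters are not in these windows. For Bax and Mdm2 too the mismatches describe these windows alone. Sequence outside the windows was not searched for any gene.

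Column names give the genotype but not the sample number, so the libraries of a group carry letters here. The reads assigned to genes of the table numbered 22137823 to 23847381 per null library and 19622596 to 23548995 per wild-type library. The deposited values are relative to a larger total, of which these reads made up 36.0% ± 1.56 in the null group (SD, n = 4) and 32.6% ± 4.77 in the wild-type group (SD, n = 3). The median log2 change, null over wild-type, of all 13997 genes tested was 0.16 on the scale as deposited. The autosomal median of a library averaged 4.13 in the null group and 3.94 in the wild-type group on that scale. Each library was centred on the median of its autosomal genes, and centred changes are the main values here. Levels are given as RPM, here scaled to the reads in listed genes alone. Smchd1 had 1922 to 2372 reads in null libraries, against 5572 to 6552 in wild-type libraries (centred log2 change -1.67, limma adjusted p = 9.54e-05).

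None of the 10 genes passed the test on centred values at an adjusted p of 0.05, and Ccng1 and Eda2r passed on the values as deposited. By limma, 7 of the 10 were higher in null tissue at an unadjusted p below 0.05, as were 7.29% of all genes, and 0 were lower. Eda2r, Cdkn1a, Ccng1 and Trp53inp1 had the largest differences, at 1.55 to 2.13 times the wild-type level. Phlda3, Zmat3 and Sesn2 were 1.22 to 1.35 times the wild-type level. Bax, Mdm2 and Bbc3 were between 0.987 and 1.04 times. In 5 of the 10 genes all null libraries exceeded all wild-type libraries, against 6.51% of all genes. On the deposited scale this held for 8 of the 10, against 7.02% of all genes. The share of genes called higher by limma at the adjusted threshold was 0.05% of all genes after centring and 0.0357% as deposited. The median centred change of the 10 genes was 0.41, and that of all genes tested was -0.03. On the deposited scale these medians were 0.60 and 0.16. In bulk tissue a change in the number of cells that express a gene and a change of its RNA per cell cannot be told apart.

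**Figure D1:**
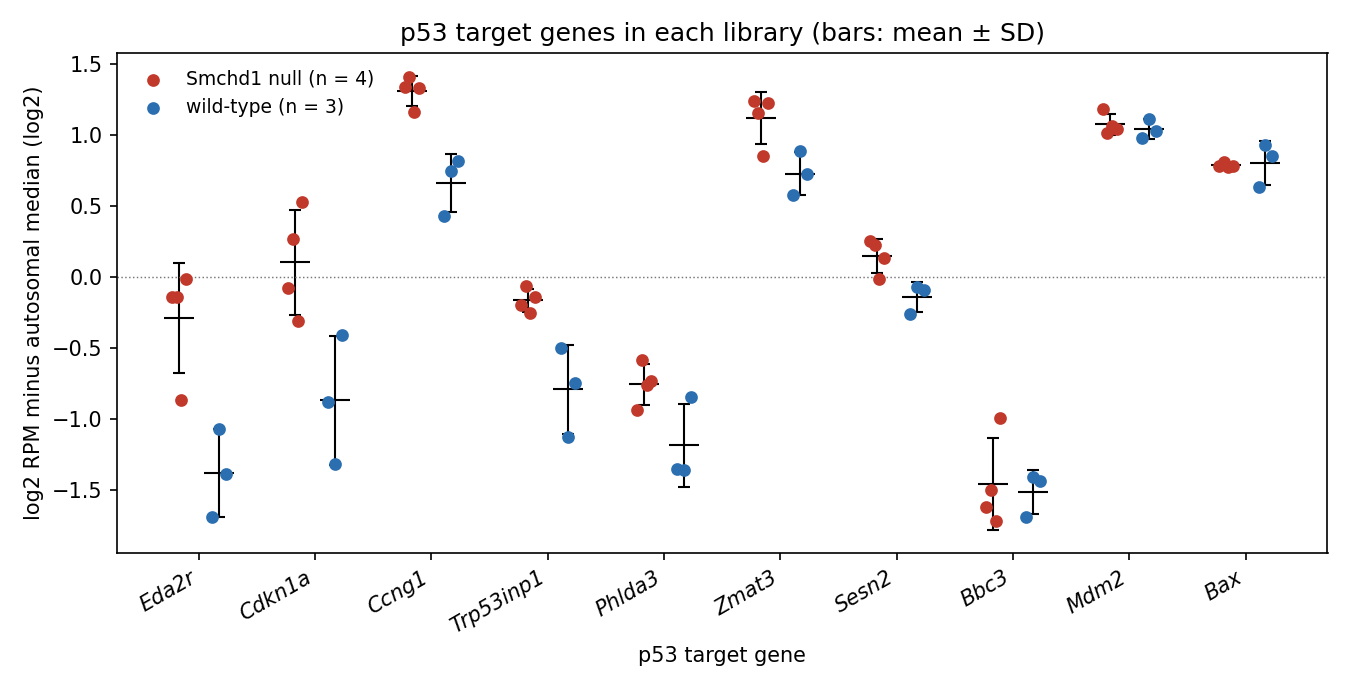
Centred log2 RPM (log2 value minus the autosomal median of the library) of the 10 p53 target genes, with 1 point per library, null in red and wild-type in blue, and bars for mean ± SD. The groups are apart in Eda2r, Cdkn1a, Ccng1, Trp53inp1 and Sesn2, and lie over each other in Bbc3, Mdm2 and Bax.

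Cdkn1a encodes p21, the inhibitor of cyclin-dependent kinases through which p53 halts the cell cycle, and lies on chromosome 17 from 29090979 to 29100722 (mm10). It had 45.7, 59.0, 39.4 and 70.9 RPM in null libraries A to D, against 26.2, 18.6 and 35.9 in wild-type libraries A to C. Null library D was the highest and wild-type library B the lowest, and the gap between null C and wild-type C was small beside the spread within each group. The centred log2 change was 0.97 (SE 0.25, 95% interval 0.41 to 1.54, limma adjusted p = 0.279). Of all genes tested, 1.26% had a larger change.

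Ccng1 encodes cyclin G1, which binds a subunit of protein phosphatase 2A and takes part in the control of Mdm2, and lies on chromosome 11 from 40748552 to 40755311. It had 122, 131, 109 and 124 RPM in null libraries A to D, against 65.0, 77.8 and 83.7 in wild-type libraries A to C. The groups were far apart relative to the spread within them, and Ccng1 had the smallest p of the 10 genes. Its centred log2 change was 0.65 (SE 0.10, 95% interval 0.42 to 0.88, limma adjusted p = 0.103). As deposited it rose by 0.84 (limma adjusted p = 0.00933), a call lost when null B (0.0614) or wild-type C (0.0602) was left out.

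Eda2r was the gene with the largest difference and the one X-linked member, on chromosome X from 97333840 to 97377216. It encodes a receptor of the tumour necrosis factor receptor family that binds the A2 form of ectodysplasin. It had 43.8, 44.5, 26.8 and 48.5 RPM in null libraries A to D, against 14.9, 22.2 and 18.1 in wild-type libraries A to C. Null library C stood below the other null libraries but above every wild-type library. The centred log2 change was 1.09 (SE 0.22, 95% interval 0.58 to 1.60, limma adjusted p = 0.207). As deposited it rose by 1.28 (limma adjusted p = 0.0414). That call was lost when null B (0.0715), null D (0.0503) or wild-type C (0.453) was left out.

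Eda2r was also set against the X chromosome as a whole. The 496 X-linked genes tested had a median centred change of 0.15, with quartiles of -0.01 and 0.30, and 6 of them had a larger change than Eda2r. Relative to the median of X-linked genes, Eda2r was at -0.10 ± 0.38 in the null group (SD, n = 4) and at -0.99 ± 0.35 in the wild-type group (SD, n = 3). The difference, 0.89, had an exact permutation p of 0.0857 (two-sided, 35 splits), and the smallest p that these splits allow is 0.0286. Relative to the autosomal median, the same permutation test of Eda2r gave p = 0.0571. Relative to the X-linked median, null library C, at -0.67, lay below wild-type library B, at -0.63, so the groups overlapped. Within 2 Mb of Eda2r 12 other genes were tested, and 2 of them had a centred change above 0. Yipf6, a Golgi membrane protein gene, had 1334 to 1571 reads in null and 800 to 1174 in wild-type libraries (centred log2 change 0.44, limma adjusted p = 0.212). The other, Heph, which encodes the ferroxidase hephaestin, had a change of 0.21 (limma adjusted p = 0.352). The lowest change was -1.32, for Gm14818, and none of the 12 passed.

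**Figure D2:**
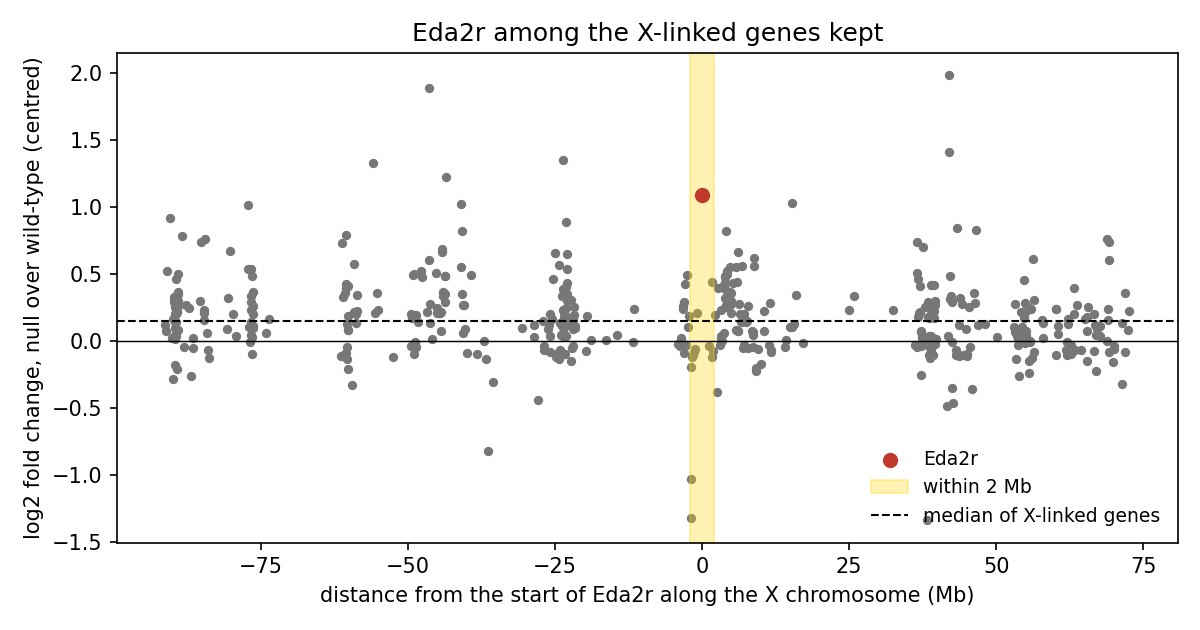
Centred log2 change, null over wild-type, of the 496 X-linked genes tested (vertical axis) by distance from the start of Eda2r in Mb (horizontal axis). Eda2r, at 1.09, lies above the dashed median of 0.15 and above the other genes in the shaded window of 2 Mb on either side.

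Trp53inp1 encodes a nuclear protein that enhances p53 activity and also acts in autophagy, and lies on chromosome 4 from 11156431 to 11174379. It had 42.0, 46.9, 40.9 and 44.5 RPM in null libraries A to D, against 34.0, 21.2 and 28.4 in wild-type libraries A to C. The null libraries were close together and the wild-type libraries spread more widely, with wild-type B the lowest. The centred log2 change was 0.63 (SE 0.14, 95% interval 0.31 to 0.94, limma adjusted p = 0.213).

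Sesn2 encodes sestrin 2, a leucine sensor that inhibits the growth kinase complex mTORC1, and lies on chromosome 4 from 132492032 to 132510501. It had 57.6, 57.3, 48.3 and 54.0 RPM in null libraries A to D, against 40.3, 44.3 and 44.7 in wild-type libraries A to C. The groups did not overlap, with null C nearest to the wild-type libraries (centred log2 change 0.29, SE 0.09, 95% interval 0.09 to 0.48, limma adjusted p = 0.333). Phlda3, whose protein competes with the kinase Akt for membrane lipids, lies on chromosome 1 from 135766119 to 135769136. It had 25.2, 32.7, 28.7 and 29.5 RPM in null libraries A to D, against 18.9, 18.1 and 26.4 in wild-type libraries A to C. Wild-type C lay above null A on this scale and after centring (change 0.43, SE 0.15, 95% interval 0.10 to 0.76, limma adjusted p = 0.352).

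Zmat3 encodes a zinc-finger protein that binds RNA, and lies on chromosome 3 from 32334796 to 32365678. It had 114, 109, 88.0 and 115 RPM in null libraries A to D, against 71.9, 85.8 and 78.6 in wild-type libraries A to C. Null C was just above wild-type B on this scale and just below it after centring. The centred log2 change was 0.39 (SE 0.11, 95% interval 0.14 to 0.64, limma adjusted p = 0.314).

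Mdm2, the ubiquitin ligase that restrains p53, on chromosome 10 from 117688888 to 117710758, had 109, 99.2, 102 and 101 RPM in null libraries A to D, against 94.9, 101 and 97.1 in wild-type libraries A to C. The groups overlapped, and the interval of the centred change, 0.04, ran from -0.10 to 0.17 (limma adjusted p = 0.758). Bax, which opens the mitochondrial outer membrane in apoptosis, lies on chromosome 7 from 45461695 to 45466898. It had 82.8, 86.2, 83.3 and 84.5 RPM in null libraries A to D, against 74.7, 88.7 and 86.0 in wild-type libraries A to C. All null libraries lay within the wild-type range (centred change -0.02, 95% interval -0.18 to 0.15, limma adjusted p = 0.898).

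Bbc3 encodes PUMA, a BH3-only protein that neutralises the anti-apoptotic Bcl2 proteins, and lies on chromosome 7 from 16309616 to 16318205. It had 15.7, 17.3, 14.8 and 24.7 RPM in null libraries A to D, against 14.9, 17.5 and 17.6 in wild-type libraries A to C. Null library D alone lay above all wild-type libraries. The centred change was 0.05 with the widest interval of these 3 genes, from -0.36 to 0.47 (limma adjusted p = 0.884). On the deposited scale the changes of Mdm2, Bax and Bbc3 were 0.23, 0.17 and 0.25, with limma adjusted p of 0.406, 0.492 and 0.564.

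**Figure D3:**
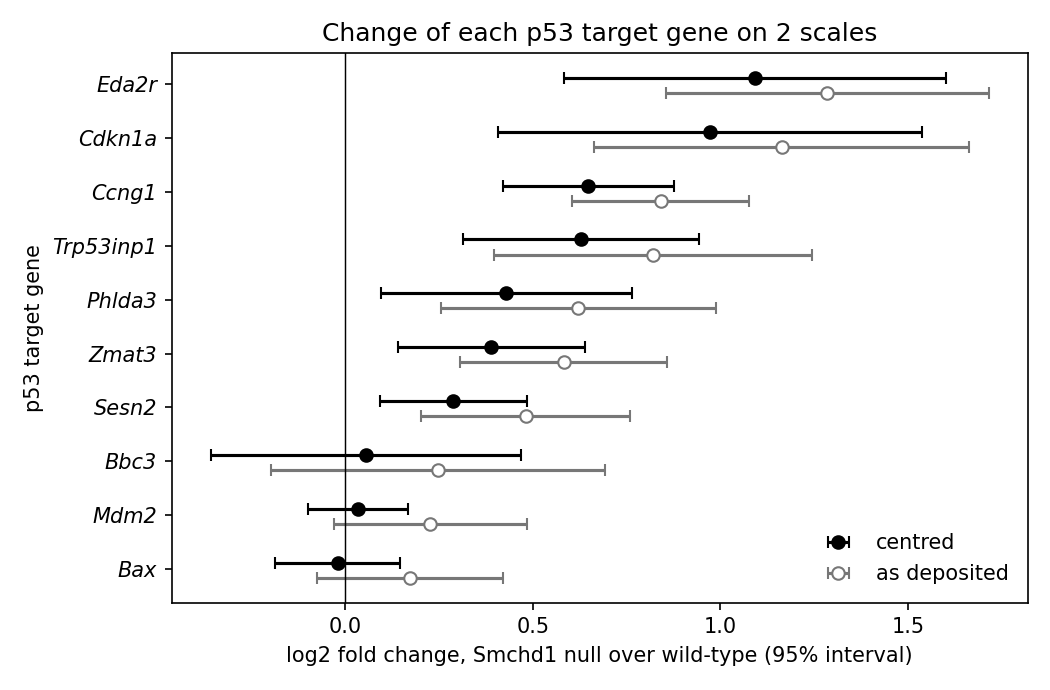
Log2 fold change, null over wild-type, of each p53 target gene (horizontal axis) with its 95% interval from limma, filled for centred values and open for values as deposited. After centring, the intervals of 7 genes from Eda2r (1.09) to Sesn2 (0.29) lie above 0, and those of Bbc3, Mdm2 and Bax include 0.

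Levels were compared between genes per length, as RPM per kilobase of annotated exon (GENCODE M21). Bax had the highest level, at 53.4 ± 0.97 in null (SD, n = 4) and 52.7 ± 4.68 in wild-type tissue (SD, n = 3). Ccng1 followed at 34.6 ± 2.57 in null and 21.5 ± 2.73 in wild-type tissue. In wild-type tissue Ccng1 and Mdm2, at 19.2 ± 0.58, were within their spread of each other, whereas in null tissue Mdm2 was at 20.3 ± 0.87 and the lowest Ccng1 library at 31.0. Phlda3 (18.6 ± 1.98), Sesn2 (15.6 ± 1.24) and Cdkn1a (15.1 ± 3.95) came next in null tissue and overlapped. Their wild-type levels were 13.6 ± 2.95, 12.4 ± 0.71 and 7.57 ± 2.43. Zmat3, Bbc3, Eda2r and Trp53inp1 had the lowest means in null tissue, from 9.32 ± 1.10 for Zmat3 to 6.73 ± 0.41 for Trp53inp1. They were not a separate group, since Bbc3 in null library D, at 11.6, lay above Cdkn1a in null library C, at 11.1. In wild-type tissue Eda2r had the lowest mean of the 10, at 3.13 ± 0.61, with Trp53inp1 next at 4.31 ± 0.99, and the libraries of these genes overlapped.

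The libraries of a group did not take the same order in every gene. Null library C was the lowest null library in 8 of the 10 genes after centring, and null library D was the lowest in 0 and the highest in 3. Among wild-type libraries, A was the lowest in 7 and B the highest in 6. The mean centred value over the 10 genes was 0.18, 0.26, -0.01 and 0.32 in null libraries A to D, and -0.38, -0.27 and -0.15 in wild-type libraries A to C.

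The column names end in the numbers 18, 21 or 22, whose meaning is not given in the sources used here, and each number occurs in both genotypes. Within number 18, with 1 null and 1 wild-type library, 8 of the 10 genes were higher in the null library, with a median difference of 0.39. Within number 21, also with 1 library of each genotype, 9 were higher, with a median of 0.47. Within number 22, with 2 null libraries and 1 wild-type library, all 10 were higher, with a median of 0.39. The shares of all genes that were higher in null were 43.5%, 45.7% and 46.5%. The exceptions were Bax and Bbc3 in number 18 and Bax in number 21, so that 8 genes were higher in null tissue within all 3 numbers. With this number in the model the lowest limma adjusted p of the 10 genes was 0.0913, for Ccng1. Another number in the names, also of unknown meaning, has a value that null B and C share with no wild-type library. Null A and wild-type A each carry a value found in no other library. This number is shared by both genotypes only in null library D and wild-type libraries B and C. In that comparison of 1 null with 2 wild-type libraries, chosen after seeing the data, the differences ran from -0.11 for Bax to 1.39 for Cdkn1a. The share of all genes higher in null was not computed for it, so no count of the 10 genes is given.

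**Figure D4:**
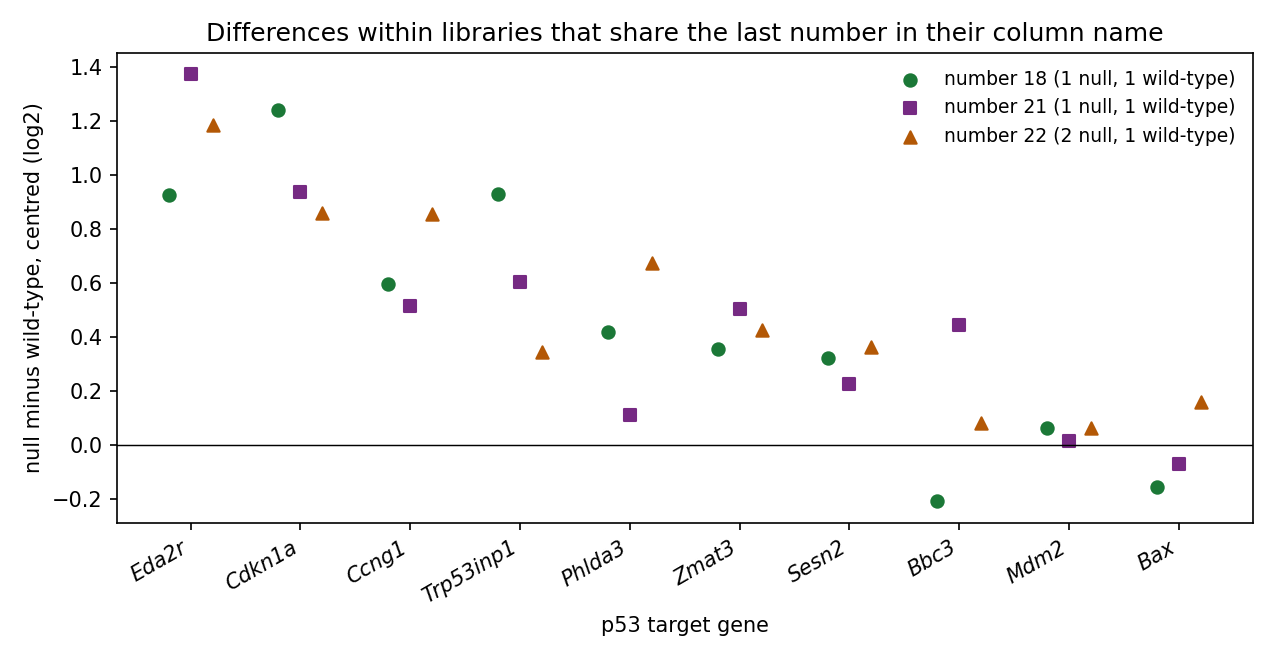
Difference in centred log2 value, null minus wild-type (vertical axis), of each p53 target gene within the libraries whose column names end in 18, 21 or 22. Eda2r, Cdkn1a, Ccng1 and Trp53inp1 are at 0.34 or higher within every number, and Mdm2 lies between 0.01 and 0.06.

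Of 53 other reported p53 targets in the table, 48 were tested and 0 passed by limma on either scale. The median centred change was 0.05, and 29 were above 0, as were 42.5% of all genes tested. At an unadjusted p below 0.05, 12 were higher and 1 was lower, against 7.29% of all genes higher and 6.71% lower. In 10 of them all null libraries exceeded all wild-type libraries, against 6.51% of all genes. Those with the smallest p were Ak1, an adenylate kinase (centred change 0.70, limma adjusted p = 0.207), Tap1, the antigen peptide transporter (1.56, adjusted p = 0.284), and Pltp, which encodes phospholipid transfer protein (0.40, adjusted p = 0.284). Ak1 had 33.1 to 45.1 RPM in null and 18.9 to 28.0 in wild-type libraries.

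Trp53 itself, which encodes p53, had 142 to 155 RPM in both null and wild-type libraries (centred change -0.06, 95% interval -0.19 to 0.07, limma adjusted p = 0.567). Mdm4, the partner of Mdm2 in restraining p53, had 122 to 145 RPM in null and 125 to 151 in wild-type libraries (change -0.04, limma adjusted p = 0.827). Of 22 regulators of p53 tested, 0 passed by limma, 0 were higher and 4 lower at an unadjusted p below 0.05, against 7.29% and 6.71% of all genes, and 2 had a centred change above 0, against 42.5% of all genes. Their median was -0.07 after centring and 0.12 as deposited, against -0.03 and 0.16 for all genes tested. In 4 of them all null libraries were below all wild-type libraries, against 6.24% of all genes. Those with the smallest p were Ing1, a chromatin reader (-0.19, limma adjusted p = 0.352), the DNA damage kinase Atm (-0.20, adjusted p = 0.352) and the kinase Hipk2 (-0.27, adjusted p = 0.352).

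p21 represses cell-cycle genes through the DREAM complex, a repressor assembled on their promoters. Of 24 such genes tested, 0 passed by limma, 2 had a centred change above 0, against 42.5% of all genes, and 10 were lower and 0 higher at an unadjusted p below 0.05, against 6.71% of all genes lower. The median was -0.13 after centring and 0.06 as deposited, against -0.03 and 0.16 for all genes tested. Its sign depended on the scale, but it lay below the median of all genes on both. Their summed level was 4242 to 4362 RPM in null libraries, against 4369 to 4658 in wild-type libraries. In 5 all null libraries were below all wild-type libraries, against 6.24% of all genes. The smallest p belonged to Cenpf, a kinetochore protein gene (-0.18, limma adjusted p = 0.207), followed by the proliferation marker Mki67 (-0.15, adjusted p = 0.352) and the checkpoint kinase gene Bub1b (-0.15, adjusted p = 0.352).

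Among 21 Bcl2 family and caspase genes tested, 0 passed by limma, 3 were higher and 2 lower at an unadjusted p below 0.05 (7.29% and 6.71% of all genes), and the median change was -0.01 after centring and 0.18 as deposited. The X-linked caspase inhibitor Xiap had the smallest p (0.36, limma adjusted p = 0.226), followed by Casp8 (0.32, adjusted p = 0.352). Of 14 immediate early genes, which respond within minutes to handling, 0 passed and 0 were higher or lower at an unadjusted p below 0.05. Jun, Nr4a1 and Ier3 had the smallest p, with changes of -0.22, 0.39 and 1.25. Sesn2 also answers to the integrated stress response through Atf4. Of 13 genes of that response tested, Sesn2 was the only one higher at an unadjusted p below 0.05, and 3 were lower (7.29% and 6.71% of all genes), among them Asns (-0.15) and Atf4 itself (-0.17).

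**Figure D5:**
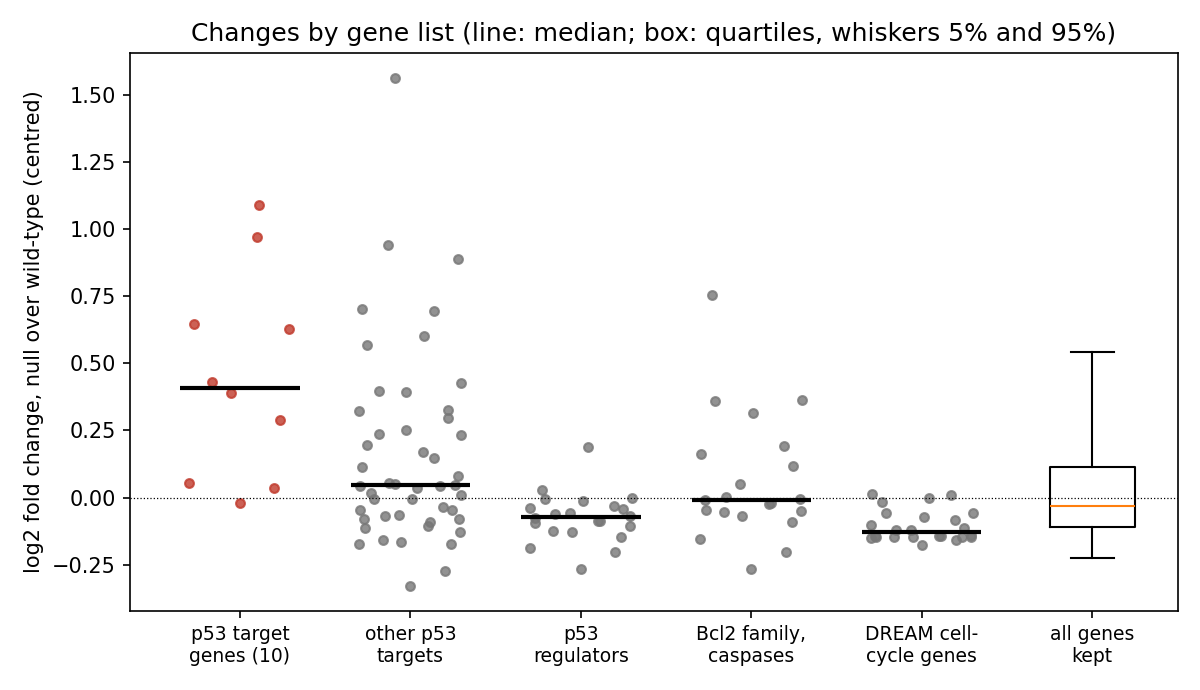
Centred log2 change, null over wild-type (vertical axis), of each gene in 5 lists, with a line at the median of each list, beside all 13997 genes tested as a box of quartiles with whiskers at 5% and 95%. The 10 p53 target genes have a median of 0.41, the other p53 targets 0.05 and the DREAM cell-cycle genes -0.13.

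Marker lists for the tissues that the dissected piece can hold are given beside these values, and their counts stand against 42.5% of all genes with a centred change above 0 and 7.29% higher at an unadjusted p below 0.05. Presomitic mesoderm markers were present in every library, with summed levels of 1346 to 1605 RPM in null and 982 to 1462 in wild-type libraries; of 14 tested, 11 had a centred change above 0 and 2 were higher at an unadjusted p below 0.05. Of 10 notochord markers, 8 had a centred change above 0 and 5 were higher at an unadjusted p below 0.05, with summed levels of 242 to 278 RPM in null and 184 to 258 in wild-type libraries. Of 9 hindgut markers, 7 were above 0 and 5 higher at that p, with summed levels of 374 to 430 RPM in null and 259 to 403 in wild-type libraries. The smallest p in the notochord list belonged to Foxa2 (0.62), the BMP antagonist Chrd (0.81) and Noto (1.04), each with a limma adjusted p of 0.207, and in the hindgut list to Foxa2, the epithelial cadherin Cdh1 (0.62) and Foxa1 (0.61). The notochord and hindgut lists share Foxa1, Foxa2, Krt8 and Krt18, and Foxa1 and Foxa2 are among the 5 higher genes of each. Of 10 surface ectoderm markers 9 were above 0 and 2 higher at that p, with sums of 404 to 457 in null and 251 to 420 in wild-type libraries. Those 2, Cdh1 and Epcam, are also among the 5 higher genes of the hindgut list. Of 9 neural tube markers 1 was above 0, with sums of 241 to 497 in null and 385 to 695 in wild-type libraries. Of 10 endothelial markers 9 were above 0 and 0 were higher at that p, and of 10 blood markers 4 were above 0. Of 9 lateral plate and intermediate mesoderm markers 2 were above 0, and 1, Pax2 (0.59, limma adjusted p = 0.312), was higher at that p. Of 10 somite markers 5 were tested, 1 was above 0 and 0 were higher at that p. By mean centred value of the presomitic mesoderm list, wild-type B was at -0.22, A and C at 0.57 and 0.51. Null libraries ran from 0.42 to 0.84. For endothelial markers wild-type B was at -0.29, A and C at 0.52 and 0.48, and null libraries at 0.23 to 0.68. For surface ectoderm wild-type B was at -1.28, A and C at -0.73 and -0.61, and null libraries at -0.71 to -0.47. In the notochord and hindgut lists every wild-type library lay below every null library on this mean. No marker gene of these lists was without reads in all libraries, and 0 passed by limma. The part of these tissues in the differences of the p53 target genes was not tested.

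The genes whose pattern over the 7 libraries was most like the mean of the 10 p53 target genes, by Pearson's r over 13987 other genes and as a description only, were Foxa2 (r = 0.985), Gpr179 (0.974), H2-Q10 (0.973), Espn (0.971) and Lrp11 (0.970). These libraries fall into the 2 genotypes, and such a likeness can rest on that division alone. Foxa2, a transcription factor gene of notochord and gut endoderm, had 14.1 to 17.9 RPM in null and 9.51 to 10.5 in wild-type libraries (centred change 0.62, limma adjusted p = 0.207).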

How the data were processed

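RNA-seq of posterior E9.5 tissue was measured in 4 null and 3 wild-type libraries. The submitters' processing notes name TopHat2 2.0.12, bcl2fastq, edgeR and the build mm10. How reads were counted (tool, strand, gene models) is not given in the sources used here. Values deposited by the authors are log2 RPM, relative to a total per library that is larger than the reads in listed genes, and a row without reads stands at the value of 0.9 read. Low values came out as whole reads within a tolerance of 0.01, so reads were recovered from them. Columns name a genotype but no sample, so each was assigned to a group and lettered in file order.

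The test kept 13997 of 25965 rows, those whose deposited log2 value exceeded 0 in 3 or more libraries, and all 10 p53 target genes passed, each in every library. Values were centred on the autosomal median of each library and tested with limma 3.58.1 in R 4.3.3 with a prior trend, 4 null against 3 wild-type libraries, adjusted by the Benjamini-Hochberg method over all genes kept. The labels do not say that libraries are separate embryos, so p-values measure the spread between libraries, which may be technical. The members and lists were chosen with earlier results of these data known, and no p was adjusted over a list. Besides the 10 genes, the rule named Smchd1, Trp53, Mdm4, the 3 genes with the smallest p of each list, genes within 2 Mb of Eda2r and the 5 genes most like the members; for most marker lists only counts and sums are printed, and some genes that the rule names are not reported here. Foxa1, Foxa2, Cdh1, Epcam, Krt8 and Krt18 each stand in more than one marker list. Tested on simulated data of 13997 genes, the centred fit recovered 23 of 50 changes of 0.5 log2 and 41 of 50 of 1. It recovered 44 of 50 of 2 and 50 of 50 of 3, with 7 unchanged genes among 165 calls. How the simulated spread compares with that of these libraries is not given here, so these shares do not measure what the fit can find in them. In the real libraries it called 8 genes, and 4930433N12Rik, with a centred change of 3.20, had a limma adjusted p of 0.103. Counting without strand would mix reads of antisense genes; exons of Cdkn1a share 273 bases with an opposite-strand annotation, and those of Bax 192 bases with a same-strand gene, neither of them a row of the table. The decamer searched is the p53 consensus of 10 bases, and mismatches were allowed outside its central C and G. Python 3.11.15 (pandas 2.3.3, numpy 2.4.6) prepared the tables and matplotlib 3.10.9 drew the plots.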

Additional observations from a re-analysis of the deposited data

Results flagged for a closer look

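Eda2r in null library C lay far from the other null libraries, at -0.86 relative to the autosomal median, against -0.14, -0.14 and -0.02 in null libraries A, B and D. Its gap to the nearest of them was 0.855 of the range of the group, above the 95% critical value of Dixon's test for 4 samples. It was the only one of 10 genes so marked in the null group, and chance marks about 1 in 20 groups. The wild-type values were -1.69, -1.07 and -1.39. Without null library C the centred change of Eda2r was 1.28 (limma adjusted p = 0.0656).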

How the results depend on the processing

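The count of p53 target genes called was 0 on centred values and under the 18 other settings on centred or otherwise scaled values, including voom on the recovered reads and each library left out, and 2 as deposited. On the deposited scale it was 0 to 8 with single libraries left out. It was 0 without null B or wild-type C, 1 without null D and 3 without null A or null C. Without wild-type B it was 4, and without wild-type A it was 8. All genes called numbered 8 after centring (7 higher, 1 lower) and 6 as deposited (5 higher, 1 lower). With quantile normalization they were 16, with cyclic loess 19, with library weights 13 and with no filter 2. With single libraries left out they were 4 to 10 after centring and 2 to 4220 as deposited. As deposited, leaving out wild-type A gave 4220 of 13912 genes tested, null A 166 of 13946 and wild-type B 146 of 13971. Leaving out null C gave 8, null D 5, null B 4 and wild-type C 2. The cause was not tested. Over the 18 alternatives to centring other than the deposited scale, Cdkn1a had changes of 0.75 to 1.20, Ccng1 0.51 to 0.72 and Eda2r 0.94 to 1.28, whereas the change of Bax was of the opposite sign in 6, that of Bbc3 in 4 and that of Mdm2 in 1. The lowest adjusted p over these alternatives was 0.0543 for Ccng1, 0.0656 for Eda2r and 0.105 for Cdkn1a. The median change of the 10 genes was 0.27 with no filter, where that of all genes tested was -0.21. No paired analysis was possible because the columns carry no sample numbers of the labels; the last number in the column names, of unknown meaning, was fitted as a covariate instead and gave 8 genes called, 0 of them p53 target genes. On the recovered reads voom was run, and edgeR was not run. Depth of 19622596 reads or more per library gave each of the 10 genes at least 327 reads.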
